A study of Mus musculus with 56 samples.

Results

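The growth hormone (GH) and insulin-like growth factor (IGF) axis of the liver was examined through 10 genes, chosen by name from the gene table: the receptor gene Ghr, the secreted factors Igf1 and Igfals, the binding protein genes Igfbp1, Igfbp2 and Igfbp4, the transcription factor genes Stat5a and Stat5b, and the feedback inhibitor genes Socs2 and Cish. All 10 were among the 25180 genes tested, of 25415 listed. RNA was sequenced from livers of female C57BL/6J mice, 9 weeks old, kept on chow under 12 h of light and 12 h of dark. For 7 days the animals had food only in the daytime (daytime-restricted feeding, DRF) or only in the nighttime (nighttime-restricted feeding, NRF). At each of 7 zeitgeber times (ZT, hours after lights on: 0, 4, 8, 12, 16, 20 and 24), 4 animals per regimen were sampled, which gave 14 groups and 56 libraries, so every sample is a separate animal and no animal was followed over time.

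GH is released from the pituitary in pulses and binds its receptor on hepatocytes, where the kinase JAK2 phosphorylates STAT5, and STAT5 enters the nucleus and drives the transcription of Igf1, Igfals, Socs2 and Cish. The liver is the main source of circulating IGF1, which travels in a complex with the acid-labile subunit encoded by Igfals and an IGF-binding protein, while the other IGF-binding proteins limit or extend its action. Igfbp1 is known as a gene that insulin represses through FOXO1, which ties the IGF axis to meals, and the pattern of GH pulses sets the sex-biased transcription of the liver.

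Values are scaled counts, which were computed back from the deposited values and lie near counts per 1000000 (CPM): they summed to between 854844 and 1068630 per library. Per library, 311 to 701 M counts (M, 1000000) were recovered, more than the sequencing of the study, so they are not called reads. Differences are on the log2(scaled count + 1) scale as DRF minus NRF with the standard error (SE), which understates changes of the weakest genes, and they were called at a limma adjusted p under 0.05 over all 25180 genes. Defining hepatocyte markers were high as a sum in every library, between 93972 and 151054 scaled counts over the 6 markers tested. Most of this sum was Alb, with a mean of 86448.5 scaled counts under DRF and 92086.9 under NRF. Of the 6 markers, 3 were called in the daily mean (6.84% of all genes were), 1 higher and 2 lower under DRF. The 4 red cell markers were called higher under DRF in the daily mean, with summed group means from 752 to 1490.4 scaled counts under DRF and from 642 to 902 under NRF, and the part of this in the results below was not tested. In whole liver, fewer cells of a type and less RNA per cell cannot be told apart.

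Among the 10 genes all differed between the regimens at 1 or more times (42.8% of all genes did), and 9 differed in their 24-h rhythm by clock time (39.0% of all genes did). When each replicate number was left out of all groups in turn, which made 4 repeats of 42 libraries, the difference at 1 or more times was lost for Cish in 3 (limma, adjusted p up to 0.143) and for Ghr in 1 (0.0533). In these repeats the rhythm difference of Igfbp1 was lost in 4 (limma, adjusted p up to 0.385), that of Cish in 3 (up to 0.156), that of Igf1 in 2 (up to 0.0751) and that of Igfals in 1 (0.123). By level per kilobase of exon, the axis covered a wide range. Igf1 had 93.6 ± 19.7 scaled counts per kilobase (SD, n = 56) and Igfbp4 92.1 ± 15.8, and Igf1 was the higher of the pair in only 26 of 56 libraries. Ghr followed at 49.3 ± 5.16 per kilobase, Igfbp2 at 36.7 ± 11.9 and Stat5b at 35.5 ± 7.60, with Igfbp2 above Stat5b in 26 of 56 libraries. Igfals had 19.1 ± 12.2 and Igfbp1 16.8 ± 11.4 per kilobase, with Igfals the higher in 34 of 56 libraries. The deposited values of Igfals came out whole with a length of 2.111 kb, while its annotated exons hold 3167 bases. Divided by the annotated length its level was 12.7 ± 8.15 per kilobase, below the mean of Igfbp1, and it was the higher in 27 of 56 libraries, so the order of these neighbours turned with the length. Stat5a, at 1.90 ± 0.423 per kilobase, lay below Igfbp1 in 53 of 56 libraries. Socs2 at 0.627 ± 0.383 and Cish at 0.598 ± 0.328 per kilobase were the weakest, with Socs2 the higher in 26 of 56 libraries.

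**Figure D1:**
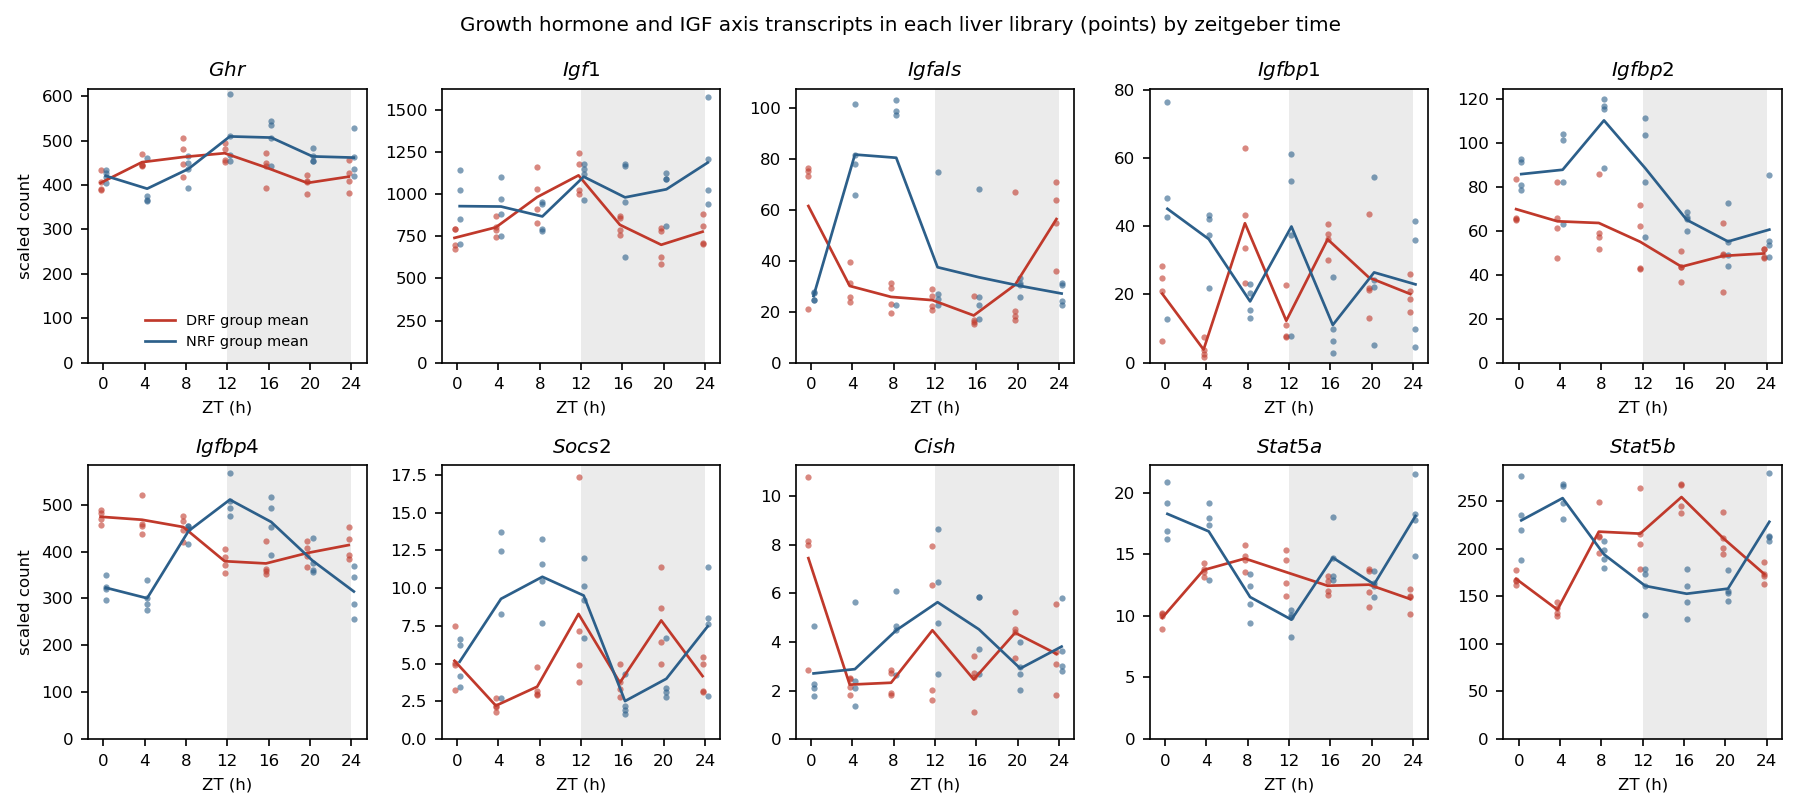
Scaled counts (vertical axes, from 0) of the 10 genes by zeitgeber time in h (horizontal axes), with a point for each of the 56 libraries, a line through the group means (red DRF, blue NRF) and the dark phase shaded. Stat5b ran in opposite directions under the regimens, with all 4 DRF livers between 237 and 268 at ZT16 and all 4 NRF livers between 126 and 179.

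Ghr, which encodes the GH receptor (chr15:3317760-3583492, minus strand, GRCm38), had the smallest differences of the 10 genes. Its group means lay between 391.7 ± 45.7 scaled counts under NRF at ZT4 and 509 ± 67.6 under NRF at ZT12 (SD, n = 4). Under DRF the lowest and highest means, 405 ± 17.8 at ZT20 and 472 ± 20.1 at ZT12, differed by 1.17-fold. At ZT4 the DRF livers had 470.4, 443, 446 and 446 scaled counts and the NRF livers 376, 459.8, 364 and 367, with NRF replicate 2 among the DRF livers. At ZT20 the DRF livers had 422, 410.1, 379.7 and 407 scaled counts and the NRF livers 465, 454, 454 and 484, all of them above the DRF livers. The ZT4 difference of 0.21 ± 0.08 (limma, adjusted p = 0.0455) was the only one called for Ghr, and it was lost when any of the 8 libraries but NRF ZT4 replicate 2 was left out (adjusted p up to 0.139), while that at ZT20 was -0.20 ± 0.08 (adjusted p = 0.0824). The receptor mRNA had a 24-h rhythm under DRF (limma, adjusted p = 0.00577, and 0.158 without 1 of the replicate numbers) and under NRF (adjusted p = 4.13e-05).

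Igf1 (chr10:87858265-87937042, plus strand), the hormone gene itself, had a 24-h rhythm under DRF (limma, adjusted p = 0.00103) that was not called under NRF (adjusted p = 0.560). Under DRF the mean was 741 ± 63.6 scaled counts at ZT0, 1113 ± 118 at ZT12 and 700.5 ± 109 at ZT20 (SD, n = 4). At ZT20 the DRF livers held 803, 587, 629 and 784 scaled counts and the NRF livers 1095, 1125, 809 and 1093. At ZT24 the DRF livers held 707, 810.1, 713 and 883 and the NRF livers 946, 1024, 1577 and 1209.7. At both times every DRF liver lay below every NRF liver, at ZT20 by a narrow margin. The difference was -0.56 ± 0.16 at ZT20 (limma, adjusted p = 0.0111) and -0.59 ± 0.16 at ZT24 (adjusted p = 0.00677). Without DRF ZT20 replicate 2 the first had an adjusted p of 0.0589, and without NRF ZT24 replicate 3 the second had 0.0662. When a replicate number was left out of all groups, the ZT20 call was kept in 1 of 4 repeats (limma, adjusted p up to 0.169). At ZT0, the same clock time as ZT24, the groups overlapped and the difference was -0.31 ± 0.16 (limma, adjusted p = 0.208). Under NRF the ZT24 livers differed from the ZT0 livers by 0.35 ± 0.16 (adjusted p = 0.189). At ZT12 the means were 1113 under DRF and 1105 under NRF.

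Igfals (chr17:24865997-24882010, plus strand), whose product holds IGF1 in the large circulating complex, had larger differences than the hormone gene. Under DRF it was highest at ZT0 with 61.5 ± 27.1 scaled counts and ZT24 with 56.4 ± 15.3, and lowest at ZT16 with 18.5 ± 5.24. Under NRF it was highest at ZT4 with 81.7 ± 14.9 and ZT8 with 80.5 ± 38.7, and its rhythm was called under both regimens (limma, adjusted p = 0.00585 and 0.00135). At ZT4 the DRF livers had 25.7, 23.9, 39.4 and 31.3 scaled counts against 77.9, 65.8, 102 and 81.6 under NRF, so the groups were far apart. This was a 2.71-fold higher mean under NRF, or -1.42 ± 0.40 (limma, adjusted p = 0.0084). At ZT8 the DRF livers had 23.0, 29.4, 19.6 and 31.2 and the NRF livers 97.2, 103, 22.6 and 99.0, of which replicate 3 fell among the DRF values. The ZT8 difference of -1.41 ± 0.40 (adjusted p = 0.0133) was lost when DRF ZT8 replicate 3 or NRF ZT8 replicate 1, 2 or 4 was left out (adjusted p up to 0.0615). At ZT24 the order was turned, with every DRF liver (71.1, 54.8, 63.8 and 35.8) above every NRF liver (31.2, 24.4, 30.3 and 22.6), but this difference of 0.997 ± 0.40 did not pass (adjusted p = 0.0986).

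The values of Igfals left a gap. Of 56 livers, 40 had between 15.1 and 39.4 scaled counts and 16 had between 54.8 and 103, and 0 lay between these ranges. In 6 of the 14 groups a single liver stood on the other side of this gap from the other 3. These were DRF ZT0 replicate 1 at 20.9, DRF ZT20 replicate 2 at 66.8, DRF ZT24 replicate 4 at 35.8, NRF ZT8 replicate 3 at 22.6, NRF ZT12 replicate 2 at 75.0 and NRF ZT16 replicate 3 at 68.4. Without DRF ZT0 replicate 1, the ZT0 difference of 1.04 ± 0.40 (limma, adjusted p = 0.0739) reached an adjusted p of 0.00816.

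Stretches of Igfals and of the feedback gene Cish are shown because both are known STAT5 targets and hold the letters TTCNNNGAA, the core of the STAT5 recognition motif, near an annotated start. A match to TTCNNNGAA, which reads the same on both strands, was in 3 of 15 RefSeq promoter windows (250 bases before to 50 after an annotated start, GRCm38.p6) of the 9 genes with a window, against 8.30% of all 32851 windows, and these 3 windows belonged to Igfals and Cish. The sequences are from RefSeq and run 5′ to 3′ with the matches in capitals. The first Igfals match begins 236 bases before an annotated start and the second 58 bases before another annotated start, while the Cish matches begin at bases 1 and 12 counted from its start.
Igfals chr17:24877594-24877652 plus strand: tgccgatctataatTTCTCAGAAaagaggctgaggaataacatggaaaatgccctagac
Igfals chr17:24878137-24878217 plus strand: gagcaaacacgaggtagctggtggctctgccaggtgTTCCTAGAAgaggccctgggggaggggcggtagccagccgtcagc
Cish chr9:107296659-107296678 plus strand: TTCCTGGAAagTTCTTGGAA

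Igfbp1 (chr11:7197782-7202546, plus strand), the insulin-repressed binding protein gene, showed the largest difference of the axis at any time. At ZT4 the DRF livers had 1.55, 7.49, 2.56 and 3.67 scaled counts, and the NRF livers had 37.4, 22.0, 42.2 and 43.4. The NRF mean was 9.49-fold higher, with no overlap, a difference of -3.05 ± 0.62 (limma, adjusted p = 0.000212) that was called whichever of the 8 libraries was left out. At ZT16 the order was turned: the DRF livers had 36.3, 30.1, 37.8 and 40.6 scaled counts and the NRF livers 2.82, 6.23, 25.2 and 9.92. Here DRF was 3.28-fold higher, again without overlap, at 1.97 ± 0.62 (adjusted p = 0.023), although the call was lost without DRF ZT16 replicate 3 or 4 or NRF ZT16 replicate 1 or 2 (adjusted p up to 0.121). At ZT8 the groups did not overlap either, with 23.5, 63.0, 43.4 and 33.7 under DRF and 13.1, 15.3, 20.4 and 23.1 under NRF, and the difference of 1.09 ± 0.62 did not pass (adjusted p = 0.297). Igfbp1 was the most variable of the 10 genes between animals of a group: its residual SD of 0.887 (log2) was above that of 99.0% of 13743 genes with a mean of at least 1 scaled count. At NRF ZT12 alone its livers ran from 7.73 to 61.3 scaled counts.

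No 24-h rhythm was called for Igfbp1 under DRF (limma, adjusted p = 0.155) or under NRF (adjusted p = 0.304) with a cosine curve. Its DRF means alternated between neighbouring times, with 3.82 ± 2.59 scaled counts at ZT4, 40.9 ± 16.8 at ZT8, 12.3 ± 7.21 at ZT12 and 36.2 ± 4.45 at ZT16 (SD, n = 4). The sequence before its start is shown because the letters CAAAACA, part of the insulin response element known from this gene, lie in it 108 bases before the annotated start (capitals). CAAAACA, searched on both strands, was in 6.28% of all 32851 windows and in 1 of the 15 windows of these genes.
Igfbp1 chr11:7197639-7197725 plus strand: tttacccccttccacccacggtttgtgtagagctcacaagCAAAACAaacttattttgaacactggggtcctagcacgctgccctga

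Igfbp2 (chr1:72824503-72852474, plus strand), another binding protein gene of the liver, had a lower DRF than NRF mean at each of the 7 times. Its daily mean differed by -0.49 ± 0.08 (limma, adjusted p = 2.13e-05), and the mean over all 28 libraries was 30.5 ± 7.39 scaled counts per kilobase under DRF and 42.8 ± 12.4 under NRF. At ZT8 the DRF livers had 51.9, 85.8, 57.4 and 59.1 scaled counts against 120.2, 117, 88.7 and 116 under NRF. The DRF replicate 2 came closest to the NRF livers, without reaching them, and the difference was -0.80 ± 0.20 (adjusted p = 0.00374). The difference at ZT12 (-0.67 ± 0.20, adjusted p = 0.0162) was lost without DRF replicate 1 or 3 or NRF replicate 1 or 2 (up to 0.0844). That at ZT16 (-0.57 ± 0.20, adjusted p = 0.0441) was lost without replicate 1, 3 or 4 of either regimen (up to 0.134). Its rhythm under DRF (adjusted p = 0.027) was lost in 3 of the 4 repeats without a replicate number (up to 0.308). Of the 10 genes only Igfbp2 and Igf1 were called in the daily mean, both lower under DRF (2.70% of all genes were called lower and 6.84% in either direction). The daily mean of Igf1 differed by -0.20 ± 0.06 (adjusted p = 0.0405), and this call was lost in 3 of the 4 repeats (up to 0.324).

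Igfbp4 (chr11:99041244-99054392, plus strand), which encodes an IGF-binding protein, had little spread between animals and differed in both directions over the day. At ZT4 the DRF livers had 455, 458, 438 and 521 scaled counts and the NRF livers 274, 287, 340.0 and 300.1. At ZT12 the DRF livers had 354, 405, 388 and 371 and the NRF livers 493, 507, 568 and 475. DRF was above NRF in the first comparison and below it in the second, each time without overlap. The difference was 0.56 ± 0.09 at ZT0 (limma, adjusted p = 3.88e-06), 0.64 ± 0.09 at ZT4 (adjusted p = 2.18e-07) and 0.41 ± 0.09 at ZT24 (adjusted p = 0.000572). It was -0.43 ± 0.09 at ZT12 (adjusted p = 0.000289) and -0.30 ± 0.09 at ZT16 (adjusted p = 0.0119), where leaving out NRF ZT16 replicate 3 or 4 gave an adjusted p of up to 0.0526.

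Stat5b (chr11:100780731-100850724, minus strand) encodes the STAT5 form that dominates GH signalling in liver, and it separated the regimens at more times than any other of the 10 genes. Its groups did not overlap at 6 of 7 times, 3 with DRF higher and 3 with DRF lower. At ZT4 the DRF livers had 137, 132, 129.6 and 144 scaled counts and the NRF livers 248, 267, 232 and 265, a 1.86-fold higher mean under NRF. At ZT16 the DRF livers had 237, 245, 266 and 268 against 144, 161, 126 and 179 under NRF, a 1.67-fold higher mean under DRF. The differences were -0.89 ± 0.11 at ZT4 (limma, adjusted p = 1.92e-08) and 0.74 ± 0.11 at ZT16 (adjusted p = 1.69e-06), and both were called whichever library was left out. Stat5b was also lower under DRF at ZT0 (-0.43 ± 0.11, adjusted p = 0.00266) and ZT24 (-0.38 ± 0.11, adjusted p = 0.00955, and 0.0819 without NRF ZT24 replicate 1), and higher at ZT12 (0.42 ± 0.11, adjusted p = 0.00442) and ZT20 (0.42 ± 0.11, adjusted p = 0.00465). Without a replicate number, the ZT12 call was lost in 2 of 4 repeats (adjusted p up to 0.113) and those at ZT0, ZT20 and ZT24 in 1 each (0.0589, 0.125 and 0.167).

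Stat5a (chr11:100859351-100885169, plus strand), the neighbouring gene for the second STAT5 protein, was weaker and differed most around the light onset. At ZT0 the DRF livers had 10.003, 8.95, 10.3 and 10.2 scaled counts and the NRF livers 16.9, 19.2, 16.2 and 20.8. At ZT24 the DRF livers had 12.2, 10.1, 11.5 and 11.6 and the NRF livers 21.5, 17.7, 18.3 and 14.9. All DRF livers were below all NRF livers at both times, and the differences were -0.82 ± 0.11 (limma, adjusted p = 1.04e-07) and -0.62 ± 0.11 (adjusted p = 2.80e-05). At ZT12, where the NRF mean was lowest at 9.69 ± 0.958, DRF was higher by 0.44 ± 0.11 (adjusted p = 0.00249). The difference at ZT8, 0.33 ± 0.11 (adjusted p = 0.0312), was lost without DRF ZT8 replicate 1, 2 or 3 or NRF ZT8 replicate 3 or 4 (adjusted p up to 0.172). Exons of Stat5a share 72 bases with exons of Stat3 on the other strand.

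Socs2 (chr10:95385362-95417180, minus strand), a STAT5-induced inhibitor of the GH receptor, was lower under DRF at ZT4 and ZT8. At ZT4 the DRF livers had 2.13, 1.77, 2.22 and 2.74 scaled counts and the NRF livers 8.27, 2.74, 12.4 and 13.7. NRF replicate 2, at 2.73979, was just above the highest DRF liver at 2.73912, so the groups met without crossing. At ZT8 the DRF livers had 2.92, 4.76, 3.21 and 3.01 and the NRF livers 11.6, 13.3, 7.67 and 10.5. The NRF mean was 4.20-fold higher at ZT4 (-1.51 ± 0.35, limma, adjusted p = 0.00101) and 3.09-fold higher at ZT8 (-1.39 ± 0.35, adjusted p = 0.00392), and both were called whichever of the 8 libraries was left out. A 24-h rhythm of Socs2 was called under NRF (adjusted p = 0.000289), not under DRF (adjusted p = 0.0799), and the rhythms themselves differed (adjusted p = 9.17e-05). Over the 14 group means Socs2 had r = 0.77 with the summed sinusoidal endothelium markers, a value picked after it was seen. Of these 6 markers, 3 were called lower and 0 higher under DRF at ZT4 (9.64% and 10.9% of all genes). The part of cell composition in the Socs2 differences was not tested.

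Cish (chr9:107296026-107302784, plus strand), another STAT5-induced inhibitor of cytokine receptors, was called at ZT0 alone among the single times. The DRF livers had 2.86, 7.99, 8.17 and 10.8 scaled counts at ZT0 and the NRF livers 1.79, 2.11, 4.65 and 2.26, so DRF replicate 1 lay among the NRF livers. The difference of 1.14 ± 0.34 (limma, adjusted p = 0.0165) was lost without DRF ZT0 replicate 3 or 4 or without NRF ZT0 replicate 1 (adjusted p up to 0.0844). At ZT24, the same clock time a day later, the DRF livers had 1.82, 3.09, 3.57 and 5.56 and the NRF livers 2.82, 3.62, 5.80 and 2.996, and the difference was -0.12 ± 0.34 (adjusted p = 0.906). No rhythm was called for Cish under DRF (adjusted p = 0.145) or NRF (adjusted p = 0.106). Exons of Cish share 261 and 479 bases with the antisense genes Gm17040 and Gm17041, and the sources used here do not say whether strand was used in counting.

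**Figure D2:**
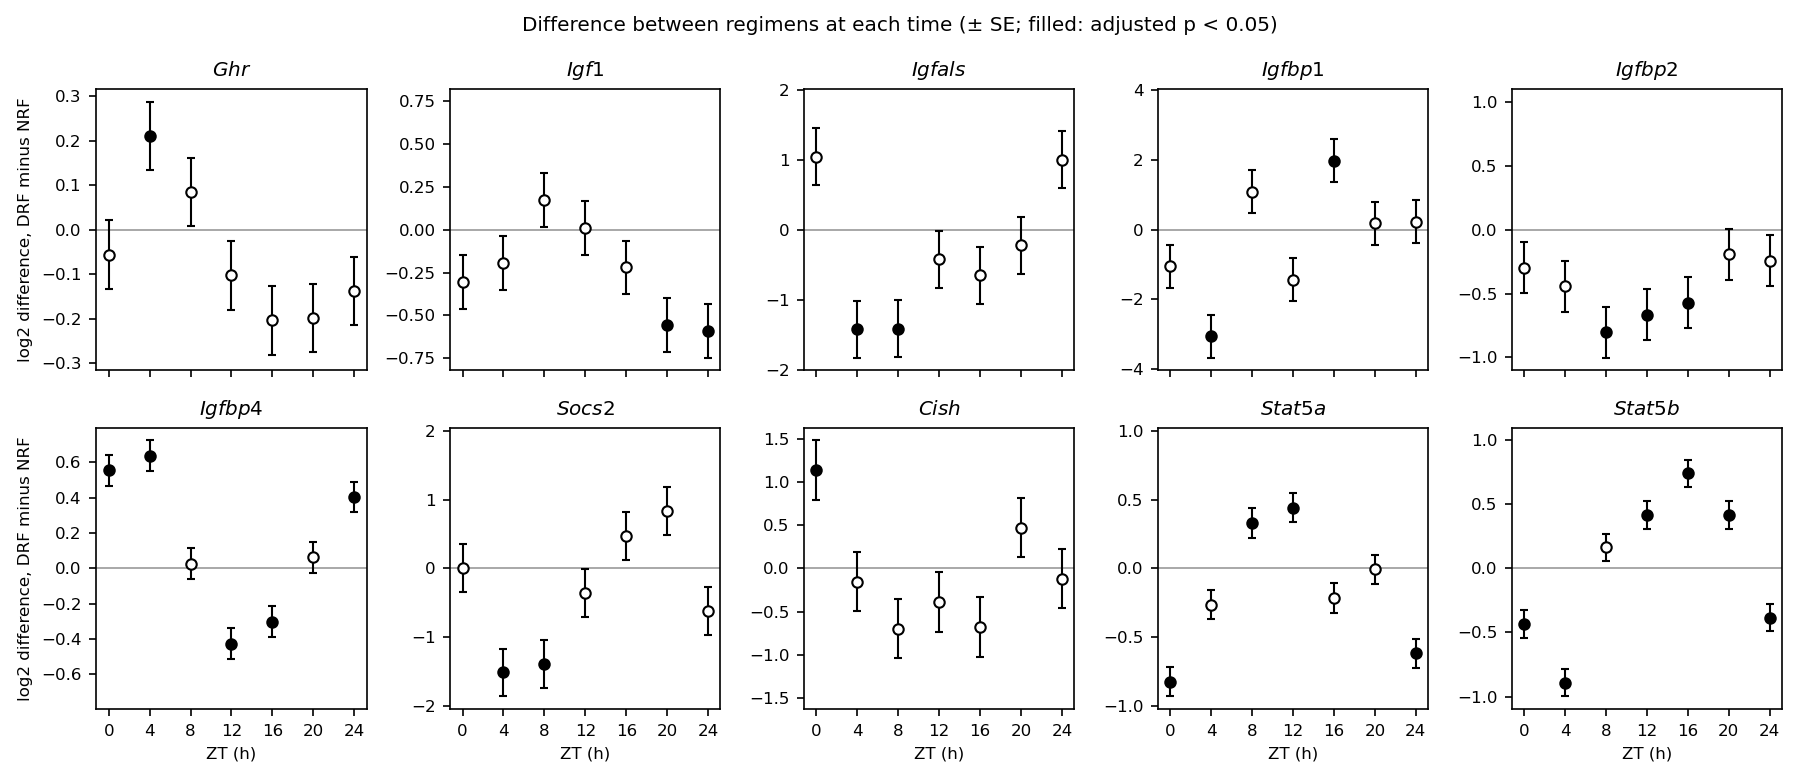
Difference between DRF and NRF in log2(scaled count + 1) at each zeitgeber time (h) for the 10 genes, with bars of 1 SE from the fit over 56 libraries and filled points where the adjusted p was under 0.05; each panel has its own vertical scale. Igfbp1 spans the widest range, from -3.05 at ZT4 to 1.97 at ZT16, and Igfbp4 and Stat5b change sign in opposite directions.

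Counted over time, 4 of the 10 genes were called at ZT0 (16.2% of all genes), 2 with DRF higher and 2 with DRF lower (8.06% and 8.09% of all genes). At ZT4 6 were called (20.5%), 2 higher and 4 lower (10.9% and 9.64%). The 4 genes called at ZT8 (13.1%) were 1 higher and 3 lower (5.76% and 7.33%), and the 4 at ZT12 (15.3%) were 2 higher and 2 lower (7.10% and 8.19%). In the dark phase 4 were called at ZT16 (15.3%), 2 in each direction (8.82% and 6.49%), and 2 at ZT20 (13.9%), 1 in each direction (7.75% and 6.12%). At ZT24 4 were called (14.2%), 1 higher and 3 lower (7.16% and 7.01%). Single libraries moved these counts: without DRF ZT8 replicate 3 or NRF ZT8 replicate 4, 2 genes were called at ZT8, without replicate 3 or 4 of DRF or of NRF at ZT16, 2 were called there, and without DRF ZT20 replicate 2, 1 was called at ZT20. Beside Igfals at ZT0, 4 calls appeared when 1 library was left out: Igfbp2 at ZT4 without NRF replicate 1 (limma, adjusted p = 0.0429), Stat5a at ZT4 without NRF replicate 2 (0.00817), Igfbp1 at ZT12 without NRF replicate 1 (0.019) and Ghr at ZT16 without NRF replicate 1 (0.0202). When a replicate number was left out of all groups, 11 of the 28 calls at single times were kept in all 4 repeats. Of the other 17, Igfals at ZT4 (limma, adjusted p up to 0.0712), Igfbp2 at ZT8 (0.0516), Socs2 at ZT8 (0.0513) and Igfbp4 at ZT24 (0.0597) were each lost in 1. Igfbp2 at ZT16 was kept in 0 of 4 (limma, adjusted p up to 0.171) and Cish at ZT0 in 2 (0.156). Kept in only 1 were Ghr at ZT4 (limma, adjusted p up to 0.2597), Igfals at ZT8 (0.1347), Stat5a at ZT8 (0.3004) and Igfbp2 at ZT12 (0.2312). The same held for Igfbp1 at ZT16 (0.1237), Igfbp4 at ZT16 (0.1499) and Igf1 at ZT20 (0.169). The losses of Stat5b are given above. In time order from lights on, groups without overlap were found for 3 genes (19.6% of all genes), then 5 (22.5%), 4 (18.1%), 3 (16.3%), 3 (16%), 3 (17.7%) and, at ZT24, 5 (16.9%). ZT0 and ZT24 are the same clock time, and none of the 10 genes differed between them in limma's test under DRF (3.13% of all genes did) or NRF (7.93%), while 3 genes under DRF and 2 under NRF had an unadjusted p under 0.05. With values as deposited, 1 gene under DRF and 4 under NRF were called between these times.

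To ask how the daily rhythms were placed, a 24-h cosine was fitted under each regimen. Under DRF 7 of 10 genes were rhythmic (35.3% of all genes), under NRF 7 (43.9%), and 6 were rhythmic under both (23.4%): Ghr, Igfals, Igfbp2, Igfbp4, Stat5a and Stat5b. Igf1 was called under DRF and Socs2 under NRF alone. Without 1 replicate number, the rhythm of Stat5a under DRF (limma, adjusted p = 0.015) was lost in 2 of 4 repeats (up to 0.12), and Igf1 under NRF was called in 1 (adjusted p = 0.0187). The peak of Stat5b came at ZT 14.97 ± 0.521 h under DRF and ZT 3.33 ± 0.466 h under NRF (SE, n = 28 each), 11.6 ± 0.70 h apart, within 1 SE of 12 h. Igfbp4 peaked at ZT 3.82 ± 0.75 h and ZT 13.2 ± 0.377 h, with a shift of 9.36 ± 0.84 h, and Stat5a at ZT 9.78 ± 1.16 h and ZT 0.185 ± 0.634 h, with a shift of 9.59 ± 1.32 h. Ghr shifted by 5.98 ± 1.21 h and Igfals by 5.66 ± 1.36 h, both earlier under DRF. Igfbp2 shifted by 2.59 ± 1.27 h, which did not pass (adjusted p = 0.0846 over 16 tests of phase and amplitude), whereas the other 5 shifts passed, with adjusted p from 7.93e-21 for Stat5b to 0.000401 for Igfals.

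**Figure D3:**
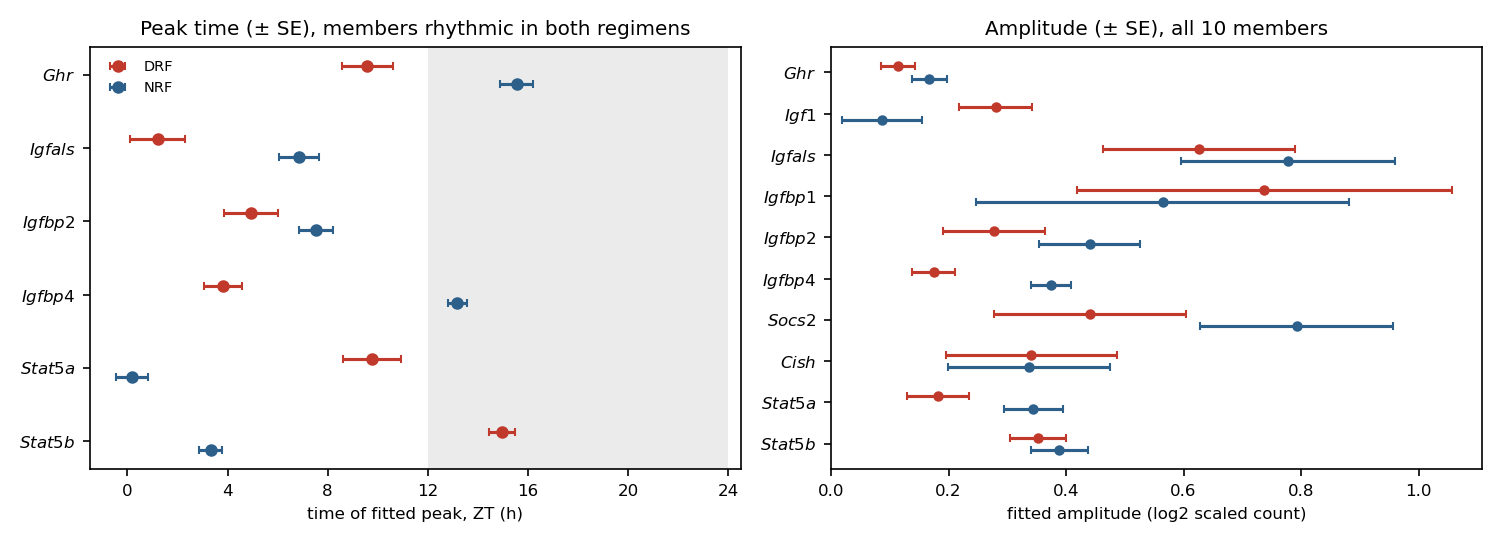
Left, fitted peak time in zeitgeber hours (horizontal axis, dark phase shaded) with bars of 1 SE for the 6 genes rhythmic under both regimens, and right, fitted amplitude in log2 scaled counts with bars of 1 SE for all 10 genes (red DRF, blue NRF). Peaks of Stat5b, Stat5a and Igfbp4 lie 11.6, 9.59 and 9.36 h apart, those of Igfbp2 2.59 h.

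Of the amplitudes, only that of Igfbp4 differed, at 0.17 ± 0.04 under DRF and 0.37 ± 0.03 under NRF (adjusted p = 0.000458). For Igf1 the amplitude was 0.28 ± 0.06 under DRF and 0.09 ± 0.07 under NRF, and the difference did not pass (adjusted p = 0.0795). When NRF profiles were moved by 12 h, so that both regimens were aligned to feeding, the rhythm of 5 genes still differed (34.6% of all genes did): Ghr, Igfals, Igfbp2, Igfbp4 and Stat5a. The call of Stat5a (adjusted p = 0.0395) was lost in 3 of the 4 repeats without a replicate number (up to 0.367) and that of Igfals (adjusted p = 0.00309) in 1 (0.0528). For Stat5b the cosine vectors then lay only 0.05 (log2) apart (limma, adjusted p = 0.858), compared with 0.74 by clock time (adjusted p = 1.52e-12). For Igfbp2 the distance was 0.28 by clock time (adjusted p = 0.102) and 0.68 by feeding time (adjusted p = 7.76e-05). The rhythms of Igfbp1 (distance 0.18, adjusted p = 0.961), Cish (0.25, adjusted p = 0.635), Socs2 (0.41, adjusted p = 0.308) and Igf1 (0.23, adjusted p = 0.0746) did not pass by feeding time.

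Animals of the same group were compared to ask which genes of the axis moved together beyond regimen and time. Over 45 pairs of genes and 56 deviations from group means, 2 pairs passed. Igf1 and Socs2 gave Pearson's r = 0.55 (permutation p = 0.00027, adjusted p = 0.0121) and Spearman's rho = 0.59 (permutation p = 8e-05, adjusted p = 0.0036), and r = 0.58 without the 2 livers farthest from the median of Igf1. Within DRF r was 0.58 and within NRF 0.54 (permutation, adjusted p = 0.0902 and 0.291). Stat5a and Stat5b gave r = 0.52 (permutation p = 0.00113, adjusted p = 0.0254) and rho = 0.54 (permutation p = 0.00056, adjusted p = 0.0126), r = 0.59 without the 2 farthest livers, and 0.56 and 0.51 within DRF and NRF (adjusted p = 0.249 and 0.291). With each library's trend on exon length removed, Igf1 and Socs2 kept r = 0.54 (adjusted p = 0.0243) and Stat5a and Stat5b had r = 0.50 (permutation, adjusted p = 0.0513). The deviations of Igf1, Socs2, Stat5a and Stat5b had r of 0.29, 0.06, 0.19 and 0.11 with the log2 of a library's recovered counts. Socs2 and Cish gave r = 0.41 (permutation p = 0.0232, adjusted p = 0.219) and rho = 0.36 (permutation p = 0.0267, adjusted p = 0.163), and r = 0.37 without the 2 farthest livers.

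**Figure D4:**
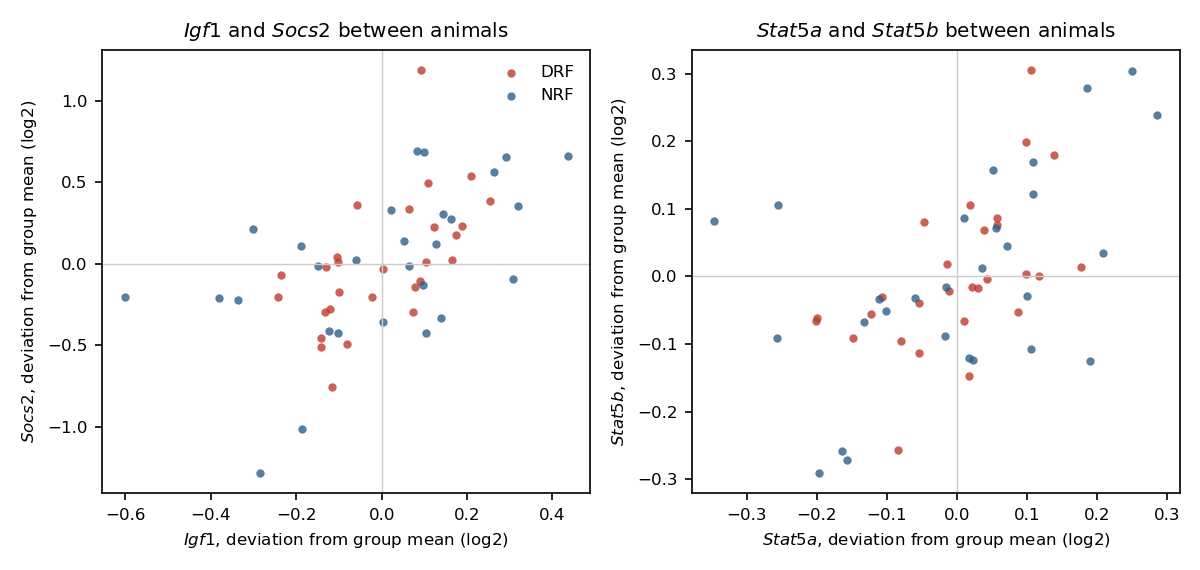
Deviation of each liver from its group mean in log2 scaled counts, Igf1 (horizontal) against Socs2 (vertical) on the left and Stat5a against Stat5b on the right, for 28 DRF (red) and 28 NRF (blue) livers. Livers with more Igf1 than their group mean tended to have more Socs2 (r = 0.55), and likewise Stat5a and Stat5b (r = 0.52).

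The spread between animals also differed among the genes. Ghr and Igfbp4 varied little, with a residual SD of 0.109 and 0.122 (log2), above that of 11.8% and 20.5% of 13743 genes. Igfals (0.582), Socs2 (0.497) and Cish (0.494) lay above 97.2%, 95.7% and 95.6% of those genes. Igf1 (0.224) lay above 71.3%.

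Other genes of the pathway were taken as whole lists, of which the gene with the smallest p is named, while the other list genes named were chosen after their values were seen. The lists here and below were chosen with earlier results of these data known. A count beside the share of all genes is therefore a description and no test of a list. Of 19 genes of GH receptor signalling, 14 differed between regimens at 1 or more times (42.8% of all genes did) and the median distance was 0.24 (log2), against 0.16 over all genes. Gab1, a docking protein for receptor kinases, had the smallest p of the list, with the highest mean under NRF at ZT12 (116 ± 13.5 scaled counts) and the lowest under DRF at ZT12 (67.8 ± 2.51). Jak2, the kinase of the GH receptor, was lower under DRF at ZT4 (-0.47, limma, adjusted p = 8.13e-05) and higher at ZT20 (0.35, adjusted p = 0.00492). Of 16 tested genes for IGF ligands, receptors and other binding proteins, 7 differed at 1 or more times, or 43.8%. The insulin receptor gene Insr led this list and ranged from 346 ± 21.1 scaled counts under DRF at ZT4 to 659.7 ± 11.4 under DRF at ZT20. Igfbp3, which encodes the main carrier of IGF1 in blood, had no called difference (adjusted p = 0.107 at any time).

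Genes that insulin represses through FOXO1 were described beside Igfbp1, since this gene belongs to that class. Their list, too, was chosen with earlier results of these data known. Of 9 such genes, 8 differed at 1 or more times (42.8% of all genes did). At ZT16, where Igfbp1 was higher under DRF, 5 of 9 were higher and 0 lower under DRF (8.82% and 6.49% of all genes), with a median difference of 0.52 against -0.00032 over all genes. At ZT4, where Igfbp1 was lower under DRF, 2 were higher and 3 lower (10.9% and 9.64% of all genes). At ZT12, where Igfbp1 was not called, 1 was higher and 6 were lower (7.10% and 8.19%). Irs2, an insulin receptor substrate, was lower under DRF at ZT4 (-1.76, limma, adjusted p = 5.81e-06) and higher at ZT16 (1.78, adjusted p = 8.96e-06), the signs seen for Igfbp1 at these times. At ZT8 the signs were opposite, with Irs2 called lower under DRF (-0.93, adjusted p = 0.0194) and Igfbp1 at 1.09, not called. The 2 genes called higher at ZT4, against the sign of Igfbp1, were Klf15 (0.65, adjusted p = 0.000743) and Trib1 (0.60, adjusted p = 0.0203). Pck1, the gene for a gluconeogenic enzyme, was higher under DRF at ZT16 by 1.45 (adjusted p = 0.00363) and was not called at ZT4 (-0.64, adjusted p = 0.228).

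Genes whose sex bias in liver depends on the GH pattern were compared in daily mean, and all livers were from females. The male-biased and female-biased lists were chosen with earlier results of these data known and hold near-identical copies. Their counts beside the share of all genes are therefore a description. Of 16 male-biased genes, 8 were lower and 0 higher under DRF, against 2.70% and 4.14% of all genes, and their median difference was -0.33, against -0.0017 over all genes. Nudt7, a peroxisomal hydrolase gene, had the smallest p of the list at any time, and its daily mean differed by -0.26 ± 0.08 (limma, adjusted p = 0.0271). Serpina1e, a protease inhibitor gene, had 249 ± 80.2 scaled counts under DRF and 1341 ± 766 under NRF (SD, n = 28). Slco1a1, an organic anion transporter gene, had 21.4 ± 14.3 under DRF and 76.7 ± 42.4 under NRF, a difference of -1.86 ± 0.22 (adjusted p = 2.33e-08). Of 19 female-biased genes, 8 were higher and 4 lower under DRF, with a median of 0.22. Fmo2, a flavin monooxygenase gene, had the smallest p of this list at any time, and its daily mean was not called (0.15 ± 0.05, adjusted p = 0.0591). Sult2a3, a sulfotransferase gene, was higher by 2.60 ± 0.27 (adjusted p = 1.59e-09) and Cyp2b10 by 1.19 ± 0.16 (adjusted p = 5.51e-07). Cyp3a44 differed by -1.91 ± 0.19 (adjusted p = 4.34e-10) and A1bg by -1.36 ± 0.24 (adjusted p = 8.01e-05), so the list held genes of both directions. Prlr, the prolactin receptor, was lower with a difference of -0.27 ± 0.04 (adjusted p = 2.03e-05). Members of the Mup, Serpina1, Sult2a, Cyp2b and Cyp3a families are near-identical copies whose reads may be split in counting, so their single values are uncertain.

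**Figure D5:**
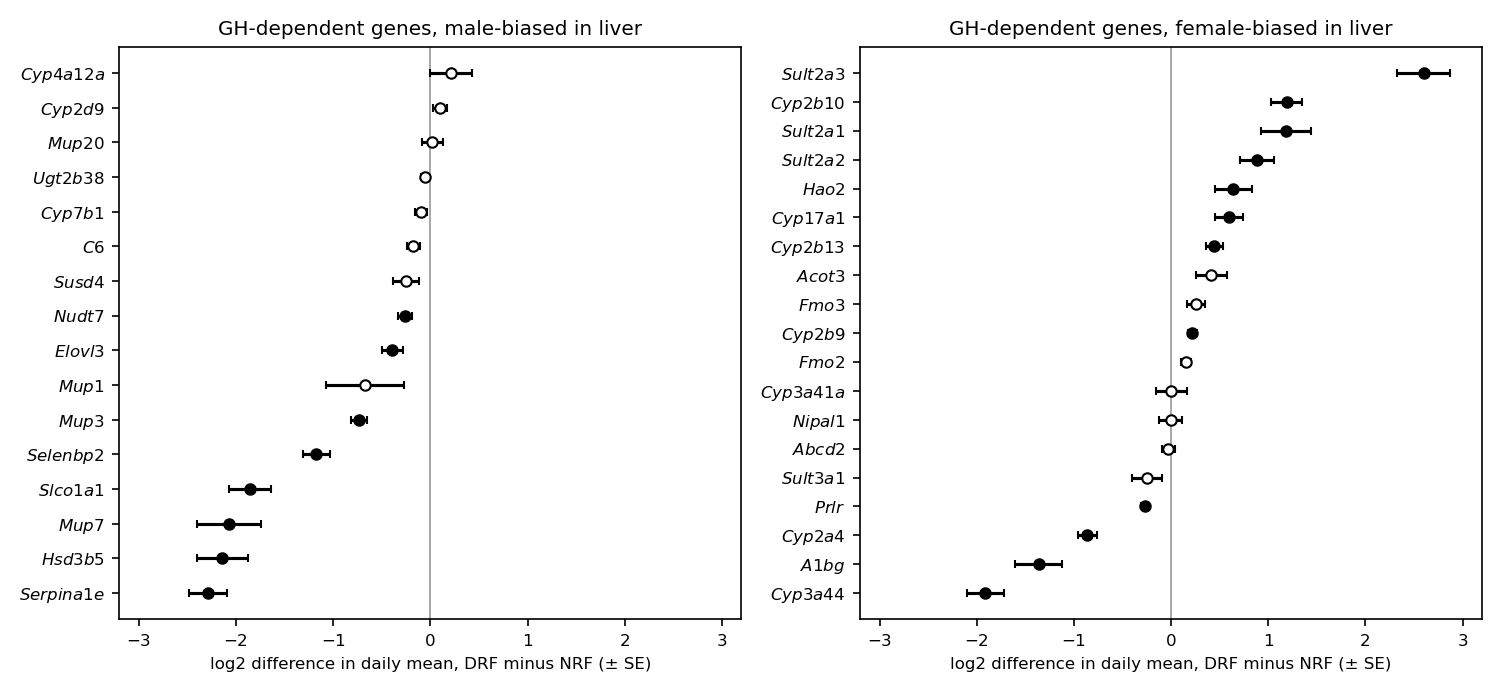
Difference in daily mean between DRF and NRF on the log2(scaled count + 1) scale, with bars of 1 SE, for GH-dependent genes that are male-biased (left, 16 genes) or female-biased (right, 19 genes) in liver; filled points had an adjusted p under 0.05. All 8 filled male-biased genes lie below 0, and of 12 filled female-biased genes 8 lie above 0 and 4 below.

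Of 10 regulators of sex-biased transcription, 0 were called in the daily mean (6.84% of all genes were) and 6 at 1 or more times (42.8%), with a median distance of 0.61 against 0.16 over all genes. Tox had the smallest p among them, with 158 ± 8.51 scaled counts under NRF at ZT12 and 54.2 ± 9.30 under NRF at ZT0. Cux2, a female-biased transcription factor gene, was higher under DRF at ZT0 (2.37, limma, adjusted p = 6.39e-05) and lower at ZT12 (-2.59, adjusted p = 1.73e-05). Bcl6, a male-biased repressor gene, had no called difference (adjusted p = 0.415 at any time).

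The profiles most like each member over the 14 group means, among 8891 genes with a mean of at least 5 scaled counts, are given as a description with no test. For Igfbp4 the nearest were Oplah (r = 0.97), Dctpp1 (0.95) and Usp2 (0.94), and for Igfbp2 Apoa1 (0.95), Dgkz (0.93) and St3gal3 (0.93). Stat5b was closest to Trmt9b, Fmnl2 and Dhrs3 (0.94, 0.94 and 0.92), Stat5a to Tnfaip2, Itsn1 and Leo1 (0.93, 0.91 and 0.87), and Socs2 to Pan2, Man2a2 and Rfwd3 (0.94, 0.90 and 0.89). Igf1 was nearest to Il13ra1, Kcnt2 and Ksr1 (0.89, 0.87 and 0.86), Igfals to Bptf, Brd7 and Ppil2 (0.88, 0.87 and 0.86) and Igfbp1 to Ip6k2, Stat3 and Slc19a2 (0.87, 0.87 and 0.86). Ghr was nearest to Kit, Dio1 and Proz (0.86, 0.86 and 0.85), and Cish to Abcg1 and Rnf115 (0.80 and 0.80). Within the axis, Igfbp4 ran against Stat5a (r = -0.75) and Stat5b (r = -0.72), and Igf1 ran with Ghr (r = 0.68).

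Transcript values were kept on the scale as deposited, which is log-like and narrows differences. Igfbp1 has a single annotated transcript, and its group means were lowest under DRF at ZT4 (18.5 ± 7.42) and 51.3 ± 4.36 under NRF at that time, without overlap at ZT4, ZT8 and ZT16, as in the gene table. For Ghr, group means of the longest protein-coding transcript (Ghr-201) ran from 48.1 to 51.4 and those of a shorter one (Ghr-202) from 128 to 139, and the regimens were without overlap at 0 of 7 times for either. Of its other transcripts, Ghr-205 was without overlap at ZT8 and ZT20, Ghr-207 and Ghr-210 at ZT20 and Ghr-209 at ZT24. Stat5b-202 separated the regimens at 5 of 7 times and Stat5b-201 at 0 of 7. Under DRF at ZT16 the group mean of Stat5b-202 was its highest (23.1) and that of Stat5b-201 its lowest (12.1). The share of all transcripts without overlap was not computed.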

How the data were processed

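Liver RNA was sequenced in 56 libraries, 1 per mouse, with 4 mice in each of 14 groups, and samples were grouped by the feeding regimen and time in the labels, which give no sequencing batch. Per the submitters' processing notes, CASAVA 1.8 and featureCounts 1.5.0-p3 were used with builds mm10 and GRCm38.p6. The aligner, and whether counting used strand, are not given in the sources used here. The labels name polyA RNA as the molecule, while their protocol describes ribosomal depletion.

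The authors deposited gene and transcript values named TPM, which are treated as a score: multiplied by exon length, each value matched a·ln(1 + f·k), where k is a whole count and a and f are constants of the library. On genes left out of the fit, 99.0% of values of up to 10 counts, 96.8% up to 100 and 67.2% between 100000 and 1000000 lay within 0.05 of a whole number, where 10% would by chance. Scaled counts f·k were computed for 25180 genes, and 235 were dropped. Of 24268 Ensembl identifiers, 24247 matched GENCODE. For Igfals the length was searched on the values (2.111 kb, against 3167 annotated exon bases), so its whole counts are no independent check. All 10 genes came out whole within 0.2 in every library, a wider limit that chance meets more often than 0.05. Within 0.05, Igf1 was whole in 18 of 56 libraries, Ghr in 43, Igfbp4 in 44 and the other genes in 56.

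The design assumed linear values, so its tests were applied to log2(scaled count + 1). limma 3.58.1 in R 4.3.3 fitted a 24-h cosine per regimen and the 14 group means (differences at each time, and jointly over the 7 times) over 56 libraries with a mean-variance trend, and p-values were Benjamini-Hochberg adjusted over all genes. Peak times and amplitudes were fitted by least squares with delta-method SEs, and pairs of genes were tested by 100000 permutations within groups (two-sided; Python 3.11.15, numpy 2.4.6, scipy 1.17.1, pandas 2.3.3). The precision of each value is the spread between animals. On simulated data for 13743 genes, 90.5% of log2 shifts of 1 at ZT4 and 95.0% of DRF rhythms with an amplitude of 0.5 were recovered. The median residual SD of the 13743 genes was 0.170 (log2). Igfbp1 (0.887), Igfals (0.582), Socs2 (0.497) and Cish (0.494) varied far more, so these shares cannot be taken to hold for them.

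All 10 genes are described. Of each list the gene with the smallest p at any time is named, and for each of the 10 genes the 3 genes with the highest r over group means, of which 1 is not reported here. The genes and lists were chosen with earlier results of these data known. Alternatives were values as deposited, median-of-ratios scaling, a pseudocount of 0.25, a minimum mean of 1 scaled count, removal of the exon length trend, a replicate block, libraries left out, time as an unordered factor, an exact Kendall rank test and linear values. The circular RNA table was not used, since its identifiers carry no coordinates.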

Additional observations from a re-analysis of the deposited data

Results flagged for a closer look

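In each of the 140 combinations of a gene and a group of 4 livers, the gap of the highest or lowest liver to its nearest neighbour was compared with the range of the group (Dixon's 95% limit). On normally distributed values chance flags about 1 in 20 groups, and 16 of 140 were flagged. Linear scaled counts need not be normal and the genes share libraries, so the flags were not compared with chance. Igfals held 6 of these: DRF ZT0 replicate 1 at 20.9 scaled counts, DRF ZT16 replicate 1 at 26.3, DRF ZT20 replicate 2 at 66.8, NRF ZT8 replicate 3 at 22.6, NRF ZT12 replicate 2 at 75.0 and NRF ZT16 replicate 3 at 68.4. For Ghr, DRF ZT4 replicate 1 at 470.4 and NRF ZT4 replicate 2 at 459.8 stood high in their groups. Igf1 was low in NRF ZT20 replicate 3 at 809. Igfbp2 was high in DRF ZT0 replicate 4 at 83.6 and low in NRF ZT8 replicate 3 at 88.7, and Igfbp4 was high in DRF ZT16 replicate 1 at 423. Socs2 was high in DRF ZT8 replicate 2 at 4.76 and NRF ZT20 replicate 1 at 6.71, Cish in NRF ZT0 replicate 3 at 4.65 and Stat5b in NRF ZT24 replicate 1 at 279.6. NRF ZT8 replicate 3 was thus low for both Igfals and Igfbp2.

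The 24-h rhythm differed between the regimens by clock time in limma's test for 9 genes. The adjusted p was 0.000915 for Ghr, 0.00534 for Igf1, 0.00298 for Igfals, 0.0473 for Igfbp1 and 2.44e-12 for Igfbp4. It was 9.17e-05 for Socs2, 0.0248 for Cish, 3.04e-07 for Stat5a and 1.52e-12 for Stat5b. That of Igfbp1 was lost whichever replicate number was left out.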

How the results depend on the processing

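Counts of called genes, of 10, changed with the values as deposited, with which 4 were rhythmic under DRF, 1 differed in daily mean, 2 at ZT12, 1 at ZT20 and 2 at ZT24, and 1 under DRF and 4 under NRF differed between ZT24 and ZT0. With the 8 libraries of a time alone, 2 were called at ZT8, 1 at ZT12, 2 at ZT16 and 2 at ZT24. Without the ZT24 libraries 1 gene differed in daily mean. A difference in amplitude was called for 3 genes on linear scaled counts and for 2 without the ZT0 libraries. Of the 2 pairs of genes that moved together, 1 remained without the exon length trend, 0 in DRF libraries alone and 0 in NRF libraries alone (permutation tests, each regimen with fewer livers). The cause of these changes was not tested. Shares of all genes called are given for the main setting only. Counts of the 10 genes under other settings, here and below, therefore cannot be set beside such a share. Dividing Igfals by its annotated length, chosen after seeing the data, gave 12.7 in place of 19.1 scaled counts per kilobase.

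Leaving out a replicate number or a single library gave 4 to 7 genes for the DRF rhythm, 3 to 5 for the rhythm by feeding time, 1 to 2 for the daily mean, 2 to 5 at ZT0, 0 to 4 at ZT8, 2 to 4 at ZT12, 1 to 4 at ZT16, 0 to 2 at ZT20, 0 to 1 for ZT24 against ZT0 under NRF, and 2 genes with a different amplitude without replicate 2. Over all single genes and settings, 2129 results kept their side of the threshold, 146 lost the call and 38 gained one. Direction was compared only for called differences that have a sign, and 0 of these turned. Differences that were not called could change sign and still count as kept.

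Replicate numbers name different animals and showed no pairing on average. Deviations of libraries with the same number had a mean r of 0.0048, and those with other numbers -0.0016. Closest to their own number were 18 of 56 libraries. Such means cannot exclude a link within 1 regimen or number. The exon length index of NRF replicate 1 was the highest of its group at ZT0, ZT4, ZT8, ZT16 and ZT20, but not at ZT12 or ZT24. With a replicate block 5 instead of 6 genes were called at ZT4, and no other call changed.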
